A study of Homo sapiens with 22 samples.

Results

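9 secreted or cytosolic epithelial proteins that block proteases or limit microbes were followed across RNA-seq libraries of RWPE1, an immortalized line derived from human prostate epithelium. The genes were PI3, SLPI, SPINK5, A2ML1, SERPINB2, SERPINB5, SERPINB13, CSTA and LCN2. They are 9 of 48648 genes with a unique symbol in the deposited table, and all 9 were among the 21325 genes that passed the filter for testing. PI3, SPINK5 and A2ML1 were chosen by their measured pattern across the groups, so their values are a description and carry no test. The other 6 genes were listed without such a note, but all 9 were listed with earlier results of these data known. Each of the 6 was taken from a test across all genes, and its p is to be read with that choice in mind. The study has 22 libraries in 4 groups, with 6 libraries of cells overexpressing wild-type NKX3.1, 6 with the R52C form of NKX3.1, 4 with the T164A form and 6 with the empty vector, an altered pTRIPZ. NKX3.1 is a homeobox transcription factor of luminal prostate cells. Every library is titled as treated with paraquat, a generator of superoxide, and no untreated library was analysed here. For 3 of the T164A libraries the treatment is given in the title alone. The labels do not say whether replicates were separate cultures, clones or preparations, so each p measures only the spread between these libraries.

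Surface epithelia release inhibitors that hold in check the proteases of neutrophils, of shedding cells and of pathogens. The WAP-domain and Kazal-type inhibitors act on serine proteases outside the cell, alpha-2-macroglobulin-like proteins trap proteases of several classes, clade B serpins act mainly inside the cell, and cystatins block cysteine cathepsins. Several are made late in squamous differentiation and are built into or act around the cornified layer, and LCN2 limits bacterial growth by holding siderophores, the iron carriers of bacteria.

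Cell type markers differed between the groups, and every value is on the log2 scale of the deposited table. Of 14 basal epithelial markers, the mean was above 3, the level taken as the limit of detection, for 14 in NKX3.1 libraries, 8 in R52C libraries, 14 in T164A libraries and 14 in Vector libraries. TP63, a regulator that defines basal cells, averaged 11.99 ± 0.03 in NKX3.1 libraries, 1.26 ± 1.66 in R52C libraries, 11.12 ± 0.11 in T164A libraries and 12.36 ± 0.11 in Vector libraries (SD, n = 6, 6, 4 and 6). The prostate luminal marker KLK3 (prostate-specific antigen) averaged 14.84 ± 0.14 in NKX3.1 libraries, 16.58 ± 0.03 in R52C libraries, 0.26 ± 0.85 in T164A libraries and 12.78 ± 0.38 in Vector libraries. The fetal kidney and neural marker IRS4 was at 13.64 ± 0.01 in T164A libraries and its mean was under 3 in the other groups. All 6 fetal kidney and neural markers tested were called higher in T164A against Vector libraries, where 40.6% of all genes were, with a median change of 6.06 once values under 3 were raised to 3. NEFM, a neurofilament gene, was at 11.23 in T164A and 3.39 in Vector libraries. SIX2, a factor of kidney progenitors, was at 8.45 in T164A and 3.76 in Vector libraries. LIN28B was at 10.43 in T164A libraries and its mean was under 3 in Vector libraries. TP63 was under 3 in all R52C libraries, although RWPE1 is known as a basal-type line. The R52C and T164A libraries therefore did not match Vector libraries in cell type markers, and in each R52C or T164A difference given here the construct and the source of the labelled cells cannot be told apart. Of the 15 luminal markers, 10 had a mean above 3 in T164A libraries and 15 in each other group. Depth in reads is unknown, and bulk RNA cannot tell fewer cells of a type from less RNA per cell.

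The first pair of genes encodes WAP-domain inhibitors. PI3 encodes elafin, an inhibitor of neutrophil elastase and proteinase 3 that transglutaminases cross-link into the surface of epithelia. PI3 had a lowest value of 11.34, a median of 11.49 and a highest value of 11.72 in NKX3.1 libraries. In R52C libraries its values ran from 0.11 over a median of 1.496 to 3.14, with 1 of 6 libraries above 3. The libraries labelled T164A had 7.56, 7.52, 7.57 and 7.57, and Vector libraries ran from 10.65 over a median of 11.23 to 11.72. NKX3.1 and Vector libraries overlapped at the high end, T164A libraries stood between, and R52C libraries were at or under the limit of detection. PI3 was at least 293-fold lower in R52C than in Vector libraries, where values under 3 were raised to 3, and 12.7-fold lower in T164A than in Vector libraries.

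SLPI encodes the secretory leukocyte protease inhibitor, a mucosal inhibitor of elastase and cathepsin G that also kills microbes. It ran from 11.80 over a median of 11.83 to 12.06 in NKX3.1 libraries, and from 6.16 over 6.22 to 6.601 in R52C libraries. It was 6.53, 6.63, 6.54 and 6.34 in T164A libraries, and ran from 11.71 over 11.94 to 12.22 in Vector libraries. Here R52C and T164A libraries overlapped, far below the other groups and above the limit of detection. SLPI was 50.2-fold lower in R52C than in Vector libraries (log2 change -5.65 ± 0.09 SE, adjusted p = 1.29e-27) and 43.6-fold lower in T164A than in Vector libraries (-5.45 ± 0.10 SE, adjusted p = 1.85e-25).

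**Figure D1:**
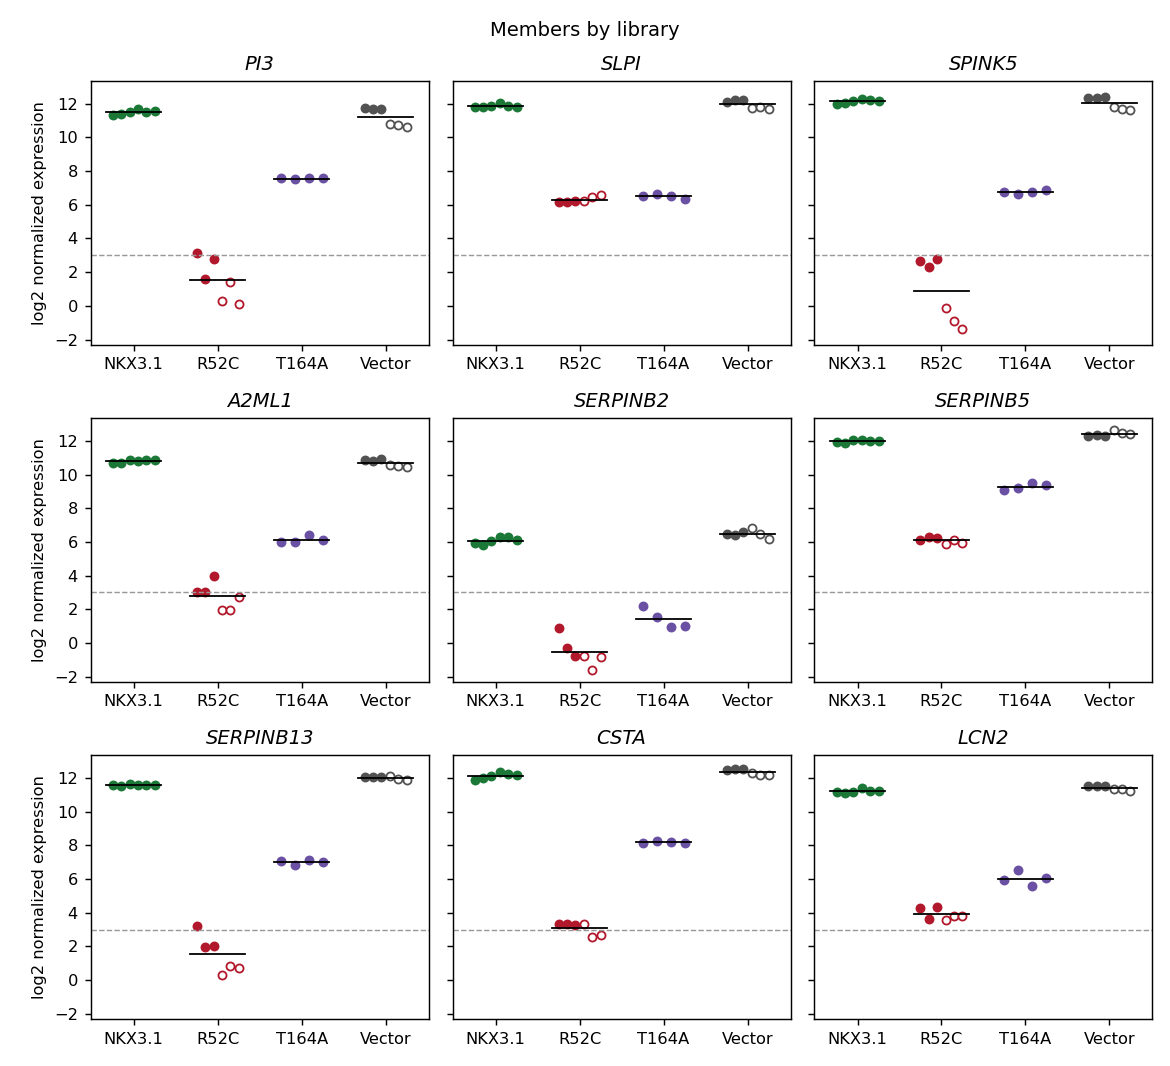
Log2 value of each of the 9 genes in every library, grouped as NKX3.1, R52C, T164A and Vector, with the group mean as a black line and the limit of detection at 3 dashed. In R52C and Vector, filled points are replicates 1 to 3 and open points replicates 4 to 6. NKX3.1 and Vector libraries lie together at the top of each panel, R52C libraries at the bottom, and T164A libraries between them for every gene but SLPI, where they overlap the R52C libraries, and SERPINB2, where both are under 3.

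SPINK5 encodes LEKTI, a Kazal-type inhibitor of epidermal kallikreins whose loss causes Netherton syndrome. It ran from 11.99 over a median of 12.14 to 12.29 in NKX3.1 libraries and from -1.39 over 1.11 to 2.79 in R52C libraries, none of which was above 3. It was 6.77, 6.62, 6.76 and 6.90 in T164A libraries and ran from 11.64 over 12.07 to 12.41 in Vector libraries. The order was that of PI3, with overlapping NKX3.1 and Vector libraries and T164A libraries apart from all others. SPINK5 was at least 528-fold lower in R52C than in Vector libraries and 38.9-fold lower in T164A than in Vector libraries.

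A2ML1 encodes an alpha-2-macroglobulin-like protease trap of the upper epidermis. Its values ran from 10.70 over a median of 10.83 to 10.85 in NKX3.1 libraries, and from 1.94 over 2.89 to 3.97 in R52C libraries, where 3 of 6 were above 3. They were 5.99, 6.01, 6.42 and 6.13 in T164A libraries, and ran from 10.48 over 10.70 to 10.92 in Vector libraries. The NKX3.1 libraries lay inside the Vector range. A2ML1 was at least 184-fold lower in R52C than in Vector libraries and 23.5-fold lower in T164A than in Vector libraries.

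3 clade B serpins were measured. SERPINB2 encodes plasminogen activator inhibitor 2, which blocks urokinase. It ran from 5.85 over a median of 6.09 to 6.27 in NKX3.1 libraries and from 6.19 over 6.49 to 6.81 in Vector libraries, so that these groups overlapped slightly. R52C libraries ran from -1.59 over -0.78 to 0.90, and T164A libraries had 2.20, 1.52, 0.98 and 0.98, so that both groups were under 3 throughout and cannot be ordered. SERPINB2 was at least 11.2-fold lower in R52C (adjusted p = 3.32e-18) and at least 11.2-fold lower in T164A (adjusted p = 9.66e-14) than in Vector libraries. The bound is the same because it is set by the Vector level alone.

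SERPINB5 encodes maspin, a serpin with no clear protease target that was described as a suppressor of breast and prostate tumour growth. It ran from 11.90 over a median of 11.99 to 12.04 in NKX3.1 libraries, and from 5.88 over 6.12 to 6.31 in R52C libraries. It was 9.11, 9.18, 9.50 and 9.36 in T164A libraries, and ran from 12.30 over 12.39 to 12.64 in Vector libraries. The 4 groups did not overlap, with Vector above NKX3.1, T164A below both and R52C lowest. SERPINB5 was 79.3-fold lower in R52C than in Vector libraries (-6.31 ± 0.07 SE, adjusted p = 5.39e-31) and 8.73-fold lower in T164A than in Vector libraries (-3.13 ± 0.08 SE, adjusted p = 7.70e-23), the smallest T164A fold among the genes with a measurable level there.

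SERPINB13 encodes an inhibitor of lysosomal cysteine cathepsins made by keratinocytes. It ran from 11.53 over a median of 11.59 to 11.62 in NKX3.1 libraries, and from 0.30 over 1.40 to 3.23 in R52C libraries, where 1 of 6 was above 3. It was 7.07, 6.85, 7.13 and 7.04 in T164A libraries, and ran from 11.90 over 12.04 to 12.12 in Vector libraries. No pair of groups overlapped. SERPINB13 was at least 504-fold lower in R52C (adjusted p = 2.39e-22) and 31.9-fold lower in T164A (adjusted p = 6.99e-14) than in Vector libraries.

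CSTA encodes cystatin A, an inhibitor of cathepsins B, H and L in the cytosol and cornified envelope of keratinocytes. It ran from 11.88 over a median of 12.16 to 12.33 in NKX3.1 libraries, and from 2.54 over 3.28 to 3.36 in R52C libraries, where 4 of 6 were above 3. It was 8.12, 8.29, 8.22 and 8.17 in T164A libraries, and ran from 12.15 over 12.40 to 12.53 in Vector libraries. CSTA was at least 570-fold lower in R52C (adjusted p = 1.16e-29) and 17.9-fold lower in T164A (adjusted p = 1.36e-20) than in Vector libraries.

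LCN2 encodes lipocalin 2, which binds bacterial siderophores. It ran from 11.10 over a median of 11.20 to 11.41 in NKX3.1 libraries, and from 3.58 over 3.82 to 4.36 in R52C libraries, all above 3. It was 5.93, 6.53, 5.60 and 6.06 in T164A libraries, and ran from 11.25 over 11.43 to 11.54 in Vector libraries. T164A replicates spread more for LCN2 than for any other of the genes above 3 there, with an SD of 0.39. LCN2 was 182-fold lower in R52C (adjusted p = 9.06e-27) and 41.8-fold lower in T164A (adjusted p = 4.57e-22) than in Vector libraries.

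Since these genes were low together in the R52C libraries, their start regions are shown for the 5 genes with an entry in the RefSeq promoter table of GRCh38.p14. PI3, SLPI, A2ML1 and CSTA had none. Each line gives the 250 bases before the annotated start, 5′ to 3′ on the strand of the gene, with matches to the motifs searched in capitals.
SPINK5 (chr5:148063730-148063979, + strand): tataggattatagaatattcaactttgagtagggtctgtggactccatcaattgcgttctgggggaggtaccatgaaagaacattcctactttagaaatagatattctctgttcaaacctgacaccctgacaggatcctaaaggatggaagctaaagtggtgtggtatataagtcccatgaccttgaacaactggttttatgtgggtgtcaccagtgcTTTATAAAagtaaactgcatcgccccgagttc
SERPINB2 (chr18:63887455-63887704, + strand): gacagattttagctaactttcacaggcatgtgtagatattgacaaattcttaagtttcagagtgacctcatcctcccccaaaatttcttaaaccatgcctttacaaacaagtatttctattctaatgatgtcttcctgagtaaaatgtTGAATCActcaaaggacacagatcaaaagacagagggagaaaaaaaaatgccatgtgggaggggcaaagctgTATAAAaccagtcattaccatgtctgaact
SERPINB5 (chr18:63476708-63476957, + strand): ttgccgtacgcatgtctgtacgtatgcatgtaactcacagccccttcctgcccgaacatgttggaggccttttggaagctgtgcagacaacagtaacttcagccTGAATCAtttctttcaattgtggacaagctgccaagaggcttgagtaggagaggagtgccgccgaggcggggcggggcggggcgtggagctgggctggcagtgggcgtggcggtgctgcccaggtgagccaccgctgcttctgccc
SERPINB13 (chr18:63587093-63587342, + strand): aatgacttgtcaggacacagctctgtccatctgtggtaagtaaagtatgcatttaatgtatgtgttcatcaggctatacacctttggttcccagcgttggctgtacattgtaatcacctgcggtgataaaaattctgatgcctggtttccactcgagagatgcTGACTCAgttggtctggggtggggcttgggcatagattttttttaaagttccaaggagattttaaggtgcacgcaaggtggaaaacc
LCN2 (chr9:128149203-128149452, + strand): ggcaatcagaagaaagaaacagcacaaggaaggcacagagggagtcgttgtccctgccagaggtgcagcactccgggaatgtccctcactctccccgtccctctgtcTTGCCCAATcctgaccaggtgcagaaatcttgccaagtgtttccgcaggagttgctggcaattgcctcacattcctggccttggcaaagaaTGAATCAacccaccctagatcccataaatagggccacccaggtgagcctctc
Motifs were searched on both strands. For the AP-1 motif the letters were TGANTCA, found in 4 of 5 sequences, against 6.57% of 35116 promoters in the table. It reads TGACTCA in SERPINB13. In SERPINB2, SERPINB5 and LCN2 its middle letter is A, while the usual AP-1 site has C or G there. The TATA box, searched as TATAAA, occurred in SPINK5 and SERPINB2, 30 to 25 bases before the start in both, against 10.7% of promoters, and in SPINK5 a reverse match overlaps it. The C/EBP motif, searched as TTGCNNAA, occurred in LCN2 (9.05% of promoters) and overlaps a CCAAT box, searched as CCAAT (32% of promoters). The NF-kB motif, searched as GGG, any 2 bases and TTTCC (1.73% of promoters), and the STAT motif, searched as TTCNNNGAA (6.57% of promoters), matched none of the 5 sequences. These matches describe letters only, and binding was not measured.

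In NKX3.1 against Vector libraries the genes differed little beside the distances to R52C and T164A. Of the 6 with a test, SERPINB5 was called lower (log2 change -0.43 ± 0.07 SE, adjusted p = 9.80e-06), and none was called higher, also at an unadjusted p under 0.05. Over all genes tested, 19.4% were called lower and 21.6% higher, or 4129 and 4606 genes, and once all libraries were brought to 1 median 6382 were called lower and 3528 higher. SERPINB13 was lower by the same size with no overlap of libraries, at -0.43 ± 0.28 SE, but its adjusted p was 0.240, with an SD of 1.09 in R52C libraries, mostly under the limit of detection, entering the shared spread. Without overlap, 2 of the 6 genes were lower, against 11.6% of all genes. SERPINB2 (-0.41 ± 0.29 SE, adjusted p = 0.290), CSTA (-0.24 ± 0.12 SE, adjusted p = 0.109), LCN2 (-0.20 ± 0.13 SE, adjusted p = 0.225) and SLPI (-0.09 ± 0.09 SE, adjusted p = 0.471) were not called. When NKX3.1 and Vector libraries alone were fitted, 5 of the 6 were called lower, against 20.9% of all genes called lower and 19.6% higher. The adjusted p was then 1.60e-08 for SERPINB13, 0.00632 for SERPINB2, 5.23e-07 for SERPINB5, 0.0143 for CSTA and 0.00574 for LCN2, and it was 0.423 for SLPI. The 3 genes chosen by their pattern had a higher mean in NKX3.1 than in Vector libraries, by 0.28 for PI3, 0.09 for SPINK5 and 0.10 for A2ML1. The median change over all genes was -0.01.

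**Figure D2:**
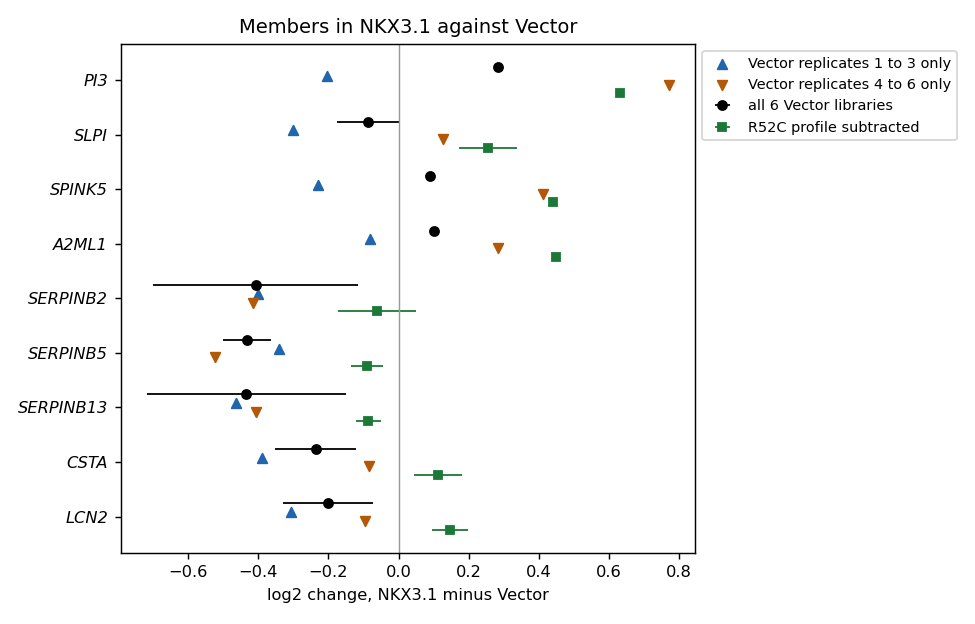
Log2 change of each of the 9 genes in NKX3.1 against Vector libraries, as black circles for all 6 Vector libraries, triangles for Vector replicates 1 to 3 or 4 to 6 alone and squares after subtraction of the R52C profile. Lines are standard errors and are drawn only for genes with a test. With all libraries SERPINB5 and SERPINB13 lie lowest at -0.43 and PI3 highest at 0.28, and after subtraction both serpins lie at -0.09. All 9 genes move up by nearly the same amount with the subtraction, through its scaling up.

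Vector libraries fell into the replicates numbered 1 to 3 and those numbered 4 to 6. PI3 was 11.71 ± 0.03 in replicates 1 to 3 and 10.73 ± 0.07 in replicates 4 to 6 (SD, n = 3 each), a difference of 0.98 and the largest among the 9 genes. SPINK5 differed by 0.64, SLPI by 0.43, A2ML1 by 0.37, CSTA by 0.31 and LCN2 by 0.21, all higher in replicates 1 to 3 without overlap, as were 14.3% of all genes tested. SERPINB5 was lower in replicates 1 to 3 by 0.18 without overlap, as were 19.7% of all genes. SERPINB2 and SERPINB13 overlapped between these libraries. In R52C libraries, 6 of the 9 genes (PI3, SPINK5, A2ML1, SERPINB2, SERPINB5 and SERPINB13) were higher in replicates 1 to 3 than in replicates 4 to 6 with no overlap, as were 7.25% of all genes tested. The difference was 3.40 for SPINK5, 1.91 for PI3 and 1.79 for SERPINB13, whose means were under 3 in both R52C sets. SERPINB2 was under 3 in every R52C library, so its order there cannot be told from noise. A2ML1 was under 3 in all R52C replicates 4 to 6. SERPINB5, the one of the 6 with both means well above 3, was at 6.22 in R52C replicates 1 to 3 and 5.98 in R52C replicates 4 to 6. The labels give no batch for the numbering, and these splits were not tested. Against replicates 1 to 3 alone, the NKX3.1 mean was lower for all 3 pattern-chosen genes, with differences of -0.20 for PI3, -0.23 for SPINK5 and -0.08 for A2ML1, and against replicates 4 to 6 alone it was higher for the same genes by 0.77, 0.41 and 0.29.

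A further value moved with the groups. In 90 genes whose R52C mean reached 8 and whose T164A mean stayed below 3, the level of each library relative to R52C replicates 4 to 6 was taken, and its most frequent value gives an R52C-like share. NKX3.1 libraries had 24.9% to 30.9%, R52C libraries 96.2% to 101%, T164A libraries 0.459% to 0.581% and Vector libraries 5.29% to 10.2%. NKX3.1 replicates 1 and 2 had the highest shares of their group, 30.5% and 30.9%, and held its 2 lowest values for every gene but SLPI. The share was 6.97% to 7.70% in Vector replicates 1 to 3 and 5.29% to 10.2% in Vector replicates 4 to 6. Of the 15 luminal markers, 14 were called higher in NKX3.1 against Vector libraries, where 21.6% of all genes were. The log2 of the summed unlogged levels of these markers was 16.1 to 16.4 in NKX3.1 and 13.8 to 14.8 in Vector libraries. When the R52C profile was removed from each library in proportion to that share and the rest scaled up, 15971 genes stayed measurable, and 12.7% of them were called lower and 1.93% higher in NKX3.1 against Vector libraries. Before removal, 4186 of these genes were called lower and 3277 higher, and after it 2032 were called lower and 308 higher. SERPINB5 was then at -0.09 ± 0.05 SE (adjusted p = 0.205), SERPINB13 at -0.09 ± 0.04 SE (adjusted p = 0.112) and SERPINB2 at -0.06 ± 0.11 SE (adjusted p = 0.760). CSTA was at 0.11 ± 0.07 SE (adjusted p = 0.292), LCN2 at 0.15 ± 0.05 SE (adjusted p = 0.0656) and SLPI at 0.26 ± 0.08 SE (adjusted p = 0.0440), the last called higher. The 3 genes chosen by their pattern were at 0.63 for PI3, 0.44 for SPINK5 and 0.45 for A2ML1. Every one of these genes was low in R52C libraries, so the removal took little from them. The scaling up, larger for NKX3.1 than for Vector libraries, raised each change by nearly the same amount. The sign changes, the lost SERPINB5 call and the SLPI call follow from that scaling and are not results for single genes. The subtraction takes the R52C libraries as the profile to remove, and the source of that share was not tested.

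**Figure D3:**
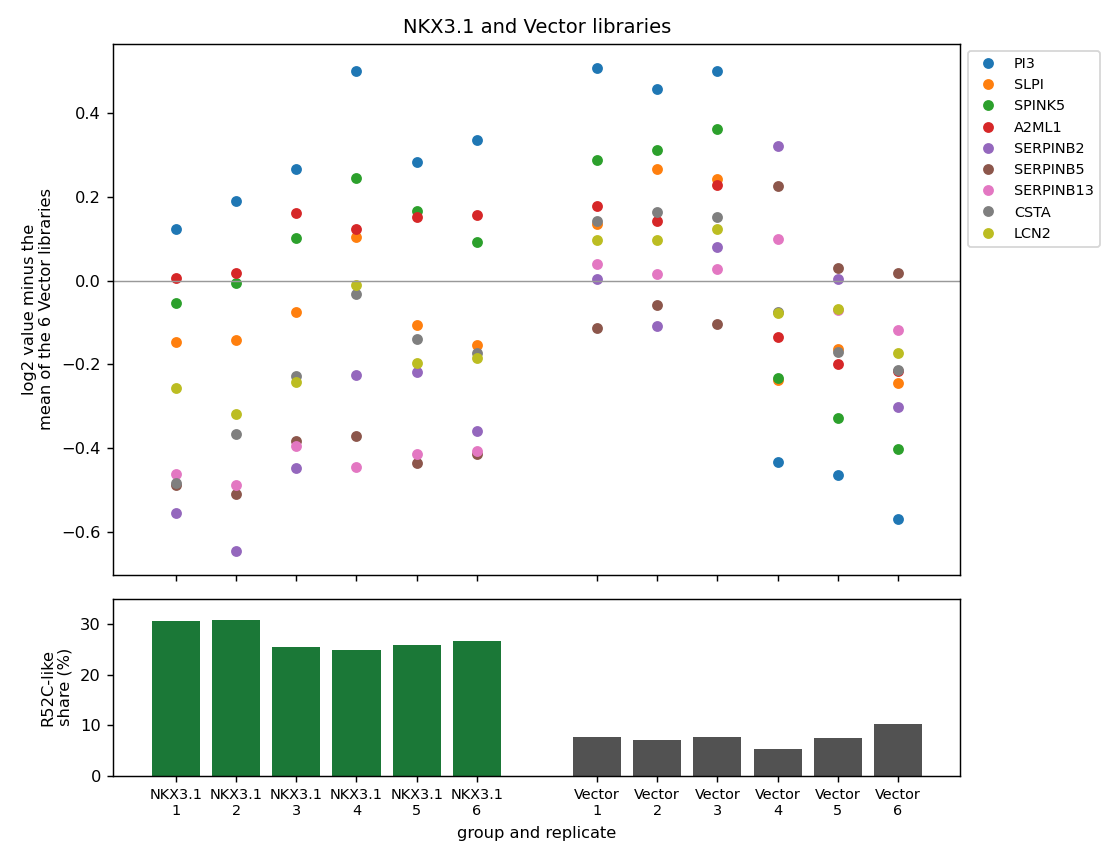
Log2 value of each gene in each NKX3.1 library and in each Vector library, given relative to the mean of the 6 Vector libraries, above bars of the R52C-like share in percent. PI3 separates Vector replicates 1 to 3 from 4 to 6 most widely, while SERPINB5 and SERPINB13 separate NKX3.1 from Vector libraries.

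All 6 genes with a test were called lower in R52C than in Vector libraries, against 41.6% of all genes called lower and 42.2% higher. None of the 6 overlapped between the groups, as for 34.9% of all genes that were lower without overlap, and each was at least 8-fold lower with values under 3 raised to 3, against 5.3% of all genes. The same held in T164A against Vector libraries, where 41.6% of all genes were called lower and 40.6% higher, 34.5% were lower without overlap and 2.04% were at least 8-fold lower. The 8-fold shares count all genes tested, also those whose Vector level was too low for such a fall. They are therefore no like baseline for the 6 genes. NKX3.1 and Vector libraries alone were enough for all 9 genes to pass the filter, and the 9 were listed with earlier results known, so these counts are a description. The log2 of the summed unlogged levels of basal markers was 17.6 to 17.7 in NKX3.1, 12.7 to 12.8 in R52C, 17.2 to 17.3 in T164A and 17.9 to 18.2 in Vector libraries. Such a sum follows its highest genes, such as LAMA3 at 12.40 in R52C libraries. The median change of basal markers against Vector, with values under 3 raised to 3, was -8.96 in R52C and -1.32 in T164A libraries. For squamous differentiation markers the log2 of the sum was 15.8 to 16.0 in NKX3.1 libraries, 9.06 to 9.38 in R52C libraries, 9.82 to 10.02 in T164A libraries and 16.1 to 16.3 in Vector libraries. The part of these markers in the result was not tested. Of 12 neutrophil and other immune markers, 2 had a mean above 3 in NKX3.1 libraries, 1 in R52C, 3 in T164A and 2 in Vector libraries, and the neutrophil genes ELANE and MPO were under 3 in all libraries.

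**Figure D4:**
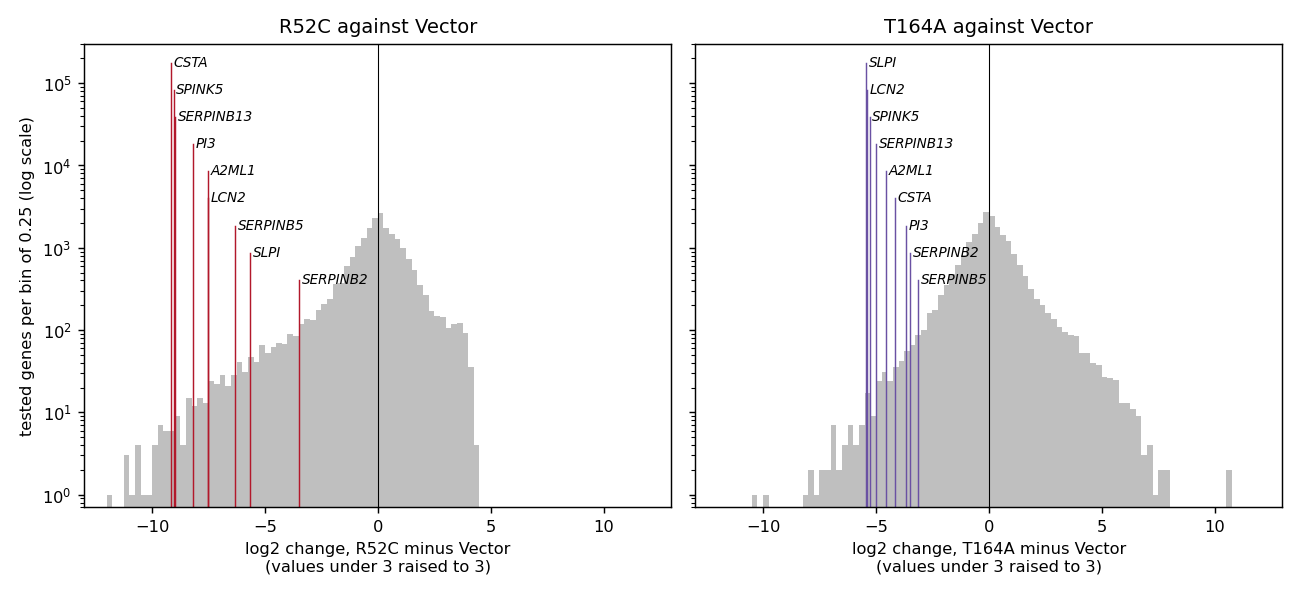
Distribution of the log2 change over all 21325 genes tested in R52C and in T164A against Vector libraries, with values under 3 raised to 3, as the number of genes per bin on a log axis, and the 9 genes marked by lines whose height has no meaning. All 9 lie in the low tail of both, from CSTA to SERPINB2 for R52C and from SLPI to SERPINB5 for T164A.

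NKX3.1 libraries were higher than R52C libraries for 6 of the 6 genes with a test (39.2% of all genes were called higher) and higher than T164A libraries for 6 of 6 (42.3% of all genes). R52C and T164A libraries, both low, differed from each other for 4 of the 6, all called lower in R52C, as were 45.2% of all genes. SERPINB5 was 9.08-fold lower in R52C than in T164A libraries (adjusted p = 2.01e-23), LCN2 was 4.34-fold lower (1.88e-13), SERPINB13 at least 15.8-fold lower (6.59e-15) and CSTA at least 31.8-fold lower (7.11e-23). SLPI was not called, at -0.20 ± 0.10 SE (adjusted p = 0.0567). It was called lower without R52C replicate 5 (adjusted p = 0.0388), R52C replicate 6 (0.0126) or T164A replicate 4 (0.0261), and took the opposite sign when libraries were shifted to 1 median, at 0.10. That shift moved R52C by 0.31 relative to T164A libraries and turned 9648 genes called lower and 8219 higher into 7524 lower and 10425 higher. SERPINB2 was under 3 in both groups and is not compared.

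Profiles across the 22 libraries were most alike for SPINK5 and SERPINB13, with a root mean square difference of 0.34 after centring and with values under 3 raised to 3. SERPINB13 and CSTA differed by 0.37, PI3 and CSTA by 0.41, and A2ML1 and LCN2 by 0.41. SERPINB2 was farthest from the rest, with 1.14 to SLPI as its nearest, its low end being cut at 3. Among genes outside the 9, SLPI was closest to SLC28A3, a nucleoside transporter, at 0.16 (Pearson r = 0.999 over 22 libraries) and to PGLYRP4, a peptidoglycan recognition protein, at 0.17. SPINK5 was closest to SPRR1B, a cornified envelope precursor, at 0.34, and to S100A9 at 0.39. A2ML1 was closest to KRT6B, a stratified epithelial keratin, at 0.28, and CSTA to the connexin gene GJB6 at 0.20. SERPINB5 was closest to HNRNPA1P33 at 0.15, then to KLK8, an epidermal kallikrein, at 0.16 and to OAS2 at 0.17. LCN2 was closest to GPR115 at 0.22, then to KRT13 and XAF1, both at 0.30. SERPINB2 was closest to PPP2R2B at 0.14, then to MX1 at 0.17. PI3 was closest to the pseudogene FABP5P7 at 0.45, whose reads may belong to its parent gene. These r values describe 4 group levels rather than independent points.

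Related genes were described by lists, beside a median change over all genes of -0.01 for NKX3.1, 0 for R52C and -0.01 for T164A against Vector libraries, with values under 3 raised to 3. The counts come from the fit of the values as deposited, so some called genes had means under 3 in both groups. LRP2, called higher in R52C libraries, averaged 1.85 there and 0.29 in Vector libraries, with a change of 0 once values were raised to 3. Over all genes, the shares called higher and lower were 21.6% and 19.4% in NKX3.1, 42.2% and 41.6% in R52C, and 40.6% and 41.6% in T164A libraries, against which each list's counts are to be read. Of 7 other clade B serpins tested, 1 was called higher and 2 lower in NKX3.1 against Vector libraries, 1 higher and 6 lower in R52C, and 1 higher and 5 lower in T164A, with median changes of -0.18, -4.28 and -2.21. SERPINB6 rose in NKX3.1 by 0.44 ± 0.03 SE (adjusted p = 2.21e-12) and in R52C by 1.51 ± 0.03 SE, while SERPINB8 fell by 0.54 ± 0.13 SE in NKX3.1 and SERPINB1 fell by 0.29 ± 0.11 SE. SERPINB1 was at least 57.8-fold lower in R52C libraries. SERPINB3 was at least 39.5-fold lower in R52C and in T164A libraries, though it shares reads with the near-identical SERPINB4 and the pair is uncertain. SERPINB3, SERPINB4 and SERPINB8 lie in the same cluster on chromosome 18 as SERPINB2, SERPINB5 and SERPINB13.

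Of 11 other WAP, Kazal and Kunitz inhibitors, 1 was called higher and 0 lower (0 also at an unadjusted p under 0.05) in NKX3.1 against Vector libraries. The 1 called was TFPI, which blocks tissue factor and rose by 1.95 ± 0.10 SE (adjusted p = 3.79e-14) in NKX3.1 and by 3.64 ± 0.10 SE in R52C libraries. Unlogged, TFPI averaged 526 in NKX3.1, 1696 in R52C and 139 in Vector libraries. SERPINB6, RECK and SLC22A17 were likewise called higher in both NKX3.1 and R52C against Vector libraries. The part of the R52C-like share in these NKX3.1 rises was not tested. In R52C libraries 3 of the 11 were called higher and 7 lower, and in T164A libraries 2 higher and 7 lower. The median change of the list was -0.04 for NKX3.1, -0.68 for R52C and -0.76 for T164A libraries. WFDC5, a neighbour of PI3 and SLPI on chromosome 20, was at least 5.42-fold lower in R52C libraries, and SPINT1, which blocks matriptase, fell by 0.68 ± 0.03 SE in R52C and fell by 1.51 ± 0.04 SE in T164A libraries. Of 3 other cystatins, 0 were called in NKX3.1 (0 with an unadjusted p under 0.05), 1 higher and 2 lower in R52C, and 1 higher and 1 lower in T164A libraries, with medians of 0.04, -0.45 and -0.47. In NKX3.1 libraries CSTB, the closest relative of CSTA, was 9.18 ± 0.12 against 9.14 ± 0.13 in Vector libraries. CD109, the 1 other alpha-2-macroglobulin family gene tested, was not called in NKX3.1 libraries (-0.35 ± 0.30 SE, adjusted p = 0.388), was at least 673-fold lower in R52C libraries and fell by 1.21 ± 0.34 SE in T164A libraries.

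Of 10 secreted serpins, 1 was called higher and 3 lower in NKX3.1, 3 higher and 5 lower in R52C, and 5 higher and 4 lower in T164A against Vector libraries, with medians of -0.06, -0.97 and 0.50. SERPINF1 fell by 0.21 ± 0.06 SE in NKX3.1 and fell by 1.95 ± 0.06 SE in R52C libraries, and rose by 2.78 ± 0.07 SE in T164A libraries. Of 4 metalloprotease inhibitors, 1 was called higher and 2 lower in NKX3.1, 1 higher and 3 lower in R52C, and 2 higher and 2 lower in T164A libraries, with medians of -0.18, -2.70 and 0.63. RECK rose in each, by 0.38 ± 0.07 SE in NKX3.1, 1.07 ± 0.07 SE in R52C and 1.64 ± 0.08 SE in T164A libraries, while TIMP3 fell by 0.50 ± 0.14 SE in NKX3.1 libraries and was at least 293-fold lower in R52C libraries.

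Of 14 other antimicrobial proteins, 2 were called higher and 1 lower in NKX3.1, 2 higher and 11 lower in R52C, and 1 higher and 11 lower in T164A against Vector libraries, with medians of -0.03, -2.58 and -2.12. The 2 called higher in NKX3.1, LTF and BPIFB1, had means under 3 in NKX3.1 and in Vector libraries, and their libraries overlapped. With values under 3 raised to 3, their changes were 0.09 and 0.25. S100A9, a subunit of calprotectin, was at 13.16 ± 0.13 in NKX3.1, 2.62 ± 0.88 in R52C, 7.60 ± 0.12 in T164A and 13.15 ± 0.41 in Vector libraries, an order like that of SPINK5. PGLYRP4 was at least 55.9-fold lower in R52C and in T164A libraries. Serum amyloid SAA1 fell by 1.08 ± 0.39 SE in NKX3.1 libraries (adjusted p = 0.0284), with overlapping libraries.

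Of 16 proteases that the inhibitors act on or that act beside them, 1 was called higher and 3 lower in NKX3.1, 1 higher and 13 lower in R52C, and 1 higher and 13 lower in T164A against Vector libraries, with medians of -0.09, -1.21 and -0.99. PLAU, the urokinase blocked by SERPINB2, was at least 206-fold lower in R52C libraries, and KLK8 at least 72.8-fold lower. CTSC, which activates leukocyte serine proteases, fell by 0.28 ± 0.05 SE in NKX3.1 and fell by 4.11 ± 0.05 SE in R52C libraries. Matriptase (ST14) fell by 1.61 ± 0.05 SE and prostasin (PRSS8) fell by 1.39 ± 0.05 SE in T164A libraries, where PLAT, the tissue plasminogen activator, rose by 3.63 ± 0.12 SE. PLAT fell by 2.61 ± 0.11 SE in R52C libraries. Among 10 binding partners and receptors, 1 was called higher and 5 lower in NKX3.1, 3 higher and 7 lower in R52C, and 4 higher and 3 lower in T164A libraries, with medians of -0.30, -2.34 and 0.21. TGM1, a transglutaminase of the cornified envelope, fell by 0.41 ± 0.09 SE in NKX3.1, fell by 5.28 ± 0.09 SE in R52C and fell by 3.32 ± 0.10 SE in T164A libraries. The LCN2 receptor gene SLC22A17 rose by 1.02 ± 0.08 SE in NKX3.1, by 2.33 ± 0.08 SE in R52C and by 0.82 ± 0.09 SE in T164A libraries, and LRP2, which encodes the other LCN2 receptor, megalin, was at least 70.8-fold higher in T164A than in Vector libraries.

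**Figure D5:**
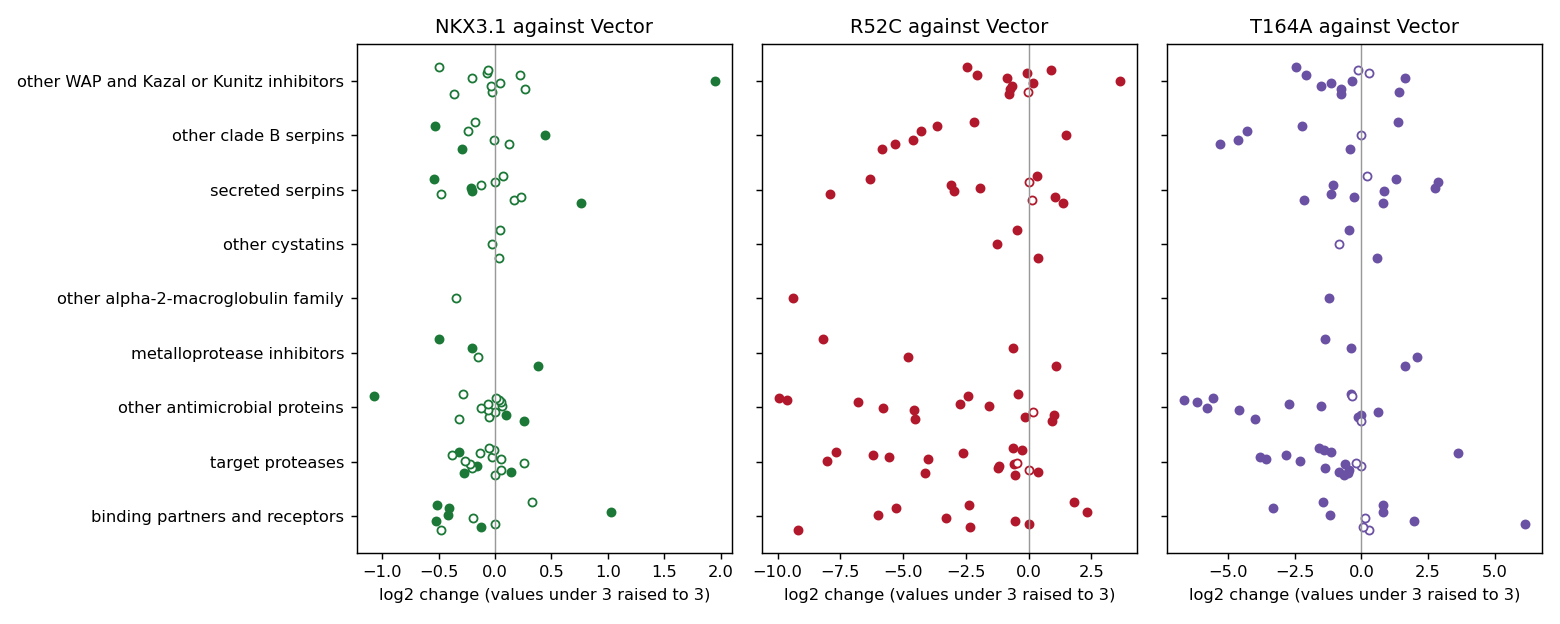
Log2 change against Vector of the tested genes of each related list in NKX3.1, R52C and T164A libraries, with values under 3 raised to 3, each point a gene, filled where called and open where not. Calls are from the values as deposited. Axes differ between panels. Changes in NKX3.1 libraries stay mostly near 0, and TFPI at 1.95 is the highest, while R52C changes reach far below 0 in most lists. T164A changes run from -6.64 among the other antimicrobial proteins to 6.15 for LRP2. TFPI lies higher still in R52C libraries.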

How the data were processed

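Per the labels, poly-A RNA went through TruSeq preparation to HiSeq2000 sequencing. Tools listed in the submitters' processing notes are DESeq, Cufflinks, TopHat and CASAVA 1.8.2, and the builds listed are GRCh37 and mm9, a mouse genome. The deposited values are log2 normalized expression. How the authors normalized them is not given in the sources used here, and levels are not per length, so genes are not compared by level. Depth in reads is unknown, and the library totals of the unlogged values were 17256903 to 21506481.

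Of 56299 entries, 3473 without a name and 4178 sharing a symbol were left out. Entries with a mean under 0 had a 99.9th percentile of 2.81, so 3 was taken as the limit of detection, and a gene was tested if 4 or more libraries exceeded it. Where a group held libraries under 3, they were raised to 3 and the fold is a bound. The 4 groups were fitted together in limma 3.58.1 (R 4.3.3) with a trend on expression, two-sided, with Benjamini-Hochberg adjustment over all 21325 genes, calling an adjusted p under 0.05. The code was tested on simulated data. Alternatives were a shift to 1 median, quantile normalization, other filters, no trend, fits of only the compared groups, single libraries or sets of replicates left out, and subtraction of the R52C profile.

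Members and lists were chosen with earlier results of these data known. Named genes beside the 9 are, for each, the 3 with the smallest root mean square difference, and of each list up to 3 with the smallest adjusted p per comparison, given in part. KLK3, TP63, IRS4, ELANE and MPO are from the marker lists, and CSTB and CD109 are the relatives of CSTA and A2ML1. Some genes chosen for testing are left unreported. No 2 libraries held identical values.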

Additional observations from a re-analysis of the deposited data

Results flagged for a closer look

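A single library stood apart from the others of its group for a pair of genes, among 29 gene and group combinations examined, where chance marks about 1 in 20. PI3 in T164A replicate 2 was 7.52, with the gap to the nearest library 0.904 of the range of that group, though the range itself ran only to 7.57. SLPI in NKX3.1 replicate 4 was 12.06, with a gap of 0.700 of the range.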

How the results depend on the processing

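No paired analysis was possible because the labels give the libraries no replicate numbers, and those used here only name samples. R52C and T164A against Vector, and NKX3.1 against R52C and T164A, kept direction and side of the threshold for the 6 genes with a test under every alternative run. The NKX3.1 against Vector comparison depended on the processing. A shift to the same median gave 6382 genes called lower and CSTA at -0.32 (adjusted p = 0.0264). Subtracting the R52C profile gave 308 called higher and 2032 lower, with SLPI at 0.26, CSTA at 0.11 and LCN2 at 0.15 on the other side of 0, and SERPINB5 no longer called. The scaling up after removal raised each of these genes by nearly the same amount, so their moves are not separate results. With Vector replicates 1 to 3 alone PI3 was -0.20, SPINK5 -0.23 and A2ML1 -0.0802, and SLPI (-0.30, adjusted p = 0.00453) and CSTA (-0.39, adjusted p = 0.0278) were called lower. With replicates 4 to 6 alone SLPI was 0.13. SLPI in R52C against T164A turned to 0.10 with the same median and to 0.18 under quantile normalization, and was called lower without R52C replicate 5 (-0.23, adjusted p = 0.0388), without R52C replicate 6 (-0.26, adjusted p = 0.0126), without T164A replicate 4 (-0.26, adjusted p = 0.0261) and with R52C replicates 1 to 3 alone (-0.32, adjusted p = 0.00716). The cause was not tested. Leaving out single libraries moved the count in NKX3.1 against Vector between 4347 and 4584 called higher and between 3753 and 4033 called lower. Of the listed related genes, CTSH (adjusted p = 0.136) and PGLYRP1 in T164A (0.0679) lost their call with the same median, and LRP1 in NKX3.1 (0.163) and SAA2 in T164A (0.0789) under quantile normalization. Calls were also gained with the same median. In NKX3.1 against Vector libraries, the count called lower went from 3 to 5 for the proteases and from 5 to 6 for the binding partners. It went from 0 to 1 for the other WAP, Kazal and Kunitz inhibitors. In T164A libraries it went from 5 to 6 for the other clade B serpins. Values under 3 carry noise, so the folds of genes with libraries under 3 are bounds.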
